A study of Homo sapiens with 6 samples.

Results

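The genes of glycolysis and of the response to low oxygen were examined after C1GALT1 knockdown in AGS, a cell line from a human gastric adenocarcinoma. The set was chosen by name and comprised 36 genes, namely glucose and lactate transporters, glycolytic enzymes, kinases that set the flux, genes induced by low oxygen and the factor HIF1A. Probes were matched to the genes by RefSeq accession, and 35 of the 36 genes had a matched probe, out of 22439 named genes on the array. The remaining gene, ALDOA, an aldolase of upper glycolysis, was not analysed here because the accession of its probe was not in the RefSeq table used. In all, 46 probes named a member, 11 genes had more than 1 probe, and the probe with the highest mean signal was used for each gene.

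Glycolysis splits glucose into pyruvate in the cytosol, and lactate dehydrogenase then turns pyruvate into lactate, which leaves the cell through monocarboxylate transporters. When oxygen is low, the prolyl hydroxylases no longer mark HIF1A for degradation, and the stabilized factor raises the transcription of most glycolytic enzymes, of the glucose transporter SLC2A1 and of genes for pH control, blood vessel growth and mitophagy. Many carcinomas, gastric carcinomas among them, keep this programme active and run glycolysis at a high rate even when oxygen is present.

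The si-Control cells received a nontargeting siRNA and the si-C1GALT1-3 cells received 1 siRNA against C1GALT1, the enzyme that adds galactose to the first sugar of mucin-type O-glycans. Both groups were AGS cells collected 48 h after transfection, with 3 samples per group and 1 one-colour Agilent array per sample. All results thus come from 1 cell line and 1 siRNA. Nothing in the labels says that the samples were separate cultures, so p-values measure only the spread between these samples. Same-numbered samples shared a slide, where the control always took column 1 and the knockdown column 2. Slide position and treatment therefore cannot be told apart.

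A spot is called detected here where the scanner software marked it well above background. Between 66.2% and 72.7% of the gene spots of an array were detected, no gene spot was saturated, and the number of arrays limits the precision. C1GALT1 itself read 12.22, 13.03 and 12.62 on the log2 scale in si-Control samples 1, 2 and 3 and 11.76, 11.98 and 11.13 on the knockdown arrays. Every knockdown array lay below every control array, and the log2 fold change was -1.0003 (SE 0.31, unadjusted p = 0.0193, adjusted p = 0.265, limma). All 6 epithelial markers (EPCAM, KRT8, KRT18, KRT19, CLDN4 and CLDN7) were detected on every array on which they were read, as were 3 of 5 immune, 2 of 3 endothelial and 2 of 4 fibroblast markers. The part of these markers in the results was not tested.

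The array of si-Control replicate 2 had a rectangle of low signal in its centre, and 9712 of the 60901 gene spots, or 15.9%, lay in it and were set to missing on that array. Of the members, ANKRD37 and HIF1A had their only chosen spot in the rectangle, so their si-Control values come from 2 arrays. GAPDH, PGK1 and ADM were each printed at 10 places and lost 1, 3 and 1 of them. With the rectangle kept, HIF1A had a log2 fold change of 1.75, against 0.08 with it masked. The low signal did not stop at the edge of the rectangle. The spot of PFKL lay 1 column to the left of it, and the spots around PFKL had a median log2 deviation of -1.52 from the other control arrays. SLC16A3 lay 4 lines above it, where the neighbouring spots deviated by -1.28. The map of the members' spots on that array shows where each lay.

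**Figure D1:**
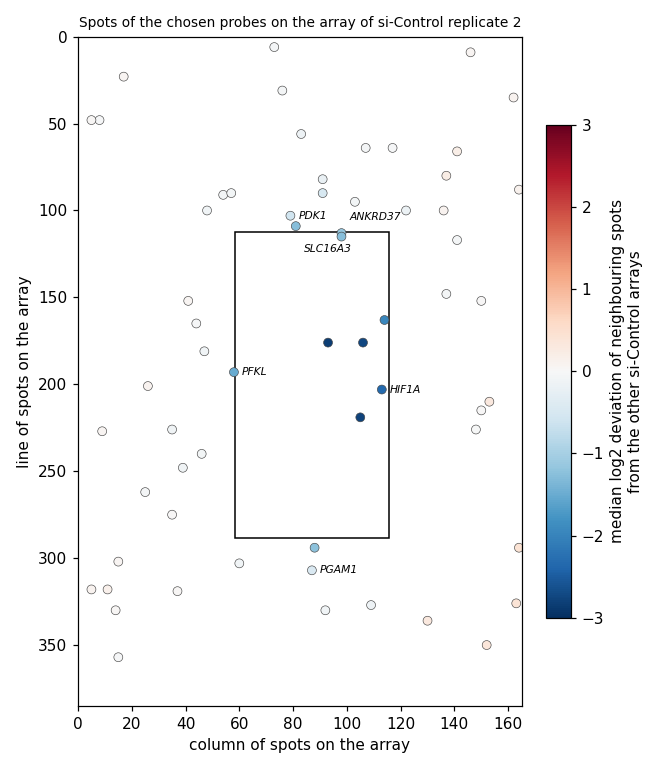
Positions of the spots of the chosen probes on the array of si-Control replicate 2, by line and column of spots, with the masked rectangle outlined. Colour gives the median log2 deviation of the neighbouring spots from the other control arrays, which was -1.52 around PFKL and -1.28 around SLC16A3, both just outside the rectangle.

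The hypoxia-inducible factors recognize a short core sequence in the genes they induce. The letters ACGTG and GCGTG were searched on both strands in the 250 bases before the transcription start of each gene, in the RefSeq promoter table of GRCh38.p14, with overlapping matches counted separately (CACGTG holds ACGTG on both strands and counts as 2 matches). The table held 31 members, ALDOA included, and not SLC2A3, SLC16A1, VEGFA, BNIP3L or NDRG1. ACGTG occurred in 14 of the 31 members, or 45.2%, against 18.5% of the 35114 promoters in the table. GCGTG occurred in 11 members, or 35.5%, against 32.2% of all promoters. A match is a description of the letters and not a site of binding. For each member 1 promoter entry was read, and bases outside these 250 were not searched. The promoters compared were not matched for base composition or kind of gene, and the set was chosen to include genes induced by low oxygen. The part of these in the shares was not tested. The sequences of 5 genes with p under 0.05 are shown, with those of LDHA and PGK1, glycolytic enzymes that held several ACGTG matches. P4HA1 spans chr10:73096867-73097116 on the minus strand, LDHA chr11:18394313-18394562 on the plus strand, PGK1 chrX:78103998-78104247 on the plus strand and PFKFB4 chr3:48556804-48557053 on the minus strand. The sequences without a match are EGLN3 at chr14:33951075-33951324 on the minus strand, SLC2A1 at chr1:42958869-42959118 on the minus strand and PFKM at chr12:48105623-48105872 on the plus strand. They are written from 5′ to 3′ in the direction of the gene, and capitals mark ACGTG and GCGTG or their reverse complements.
P4HA1: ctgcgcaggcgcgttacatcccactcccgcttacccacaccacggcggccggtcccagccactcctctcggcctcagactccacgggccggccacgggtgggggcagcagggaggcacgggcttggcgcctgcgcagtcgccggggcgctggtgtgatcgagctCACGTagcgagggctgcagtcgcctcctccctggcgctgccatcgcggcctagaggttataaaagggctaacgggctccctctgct
LDHA: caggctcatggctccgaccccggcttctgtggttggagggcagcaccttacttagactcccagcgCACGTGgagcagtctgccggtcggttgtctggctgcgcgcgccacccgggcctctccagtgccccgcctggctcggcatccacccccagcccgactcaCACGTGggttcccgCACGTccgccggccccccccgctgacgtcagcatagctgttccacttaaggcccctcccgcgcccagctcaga
PGK1: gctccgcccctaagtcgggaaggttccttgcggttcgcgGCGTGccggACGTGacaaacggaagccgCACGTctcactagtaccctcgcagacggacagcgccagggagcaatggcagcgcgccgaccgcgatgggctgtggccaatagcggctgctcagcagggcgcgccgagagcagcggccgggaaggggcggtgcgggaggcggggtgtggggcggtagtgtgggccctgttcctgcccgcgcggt
PFKFB4: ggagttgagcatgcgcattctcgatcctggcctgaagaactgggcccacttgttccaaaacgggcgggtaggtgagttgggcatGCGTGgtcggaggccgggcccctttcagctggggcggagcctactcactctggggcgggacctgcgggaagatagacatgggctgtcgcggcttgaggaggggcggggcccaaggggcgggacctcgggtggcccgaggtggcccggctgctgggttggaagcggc
EGLN3: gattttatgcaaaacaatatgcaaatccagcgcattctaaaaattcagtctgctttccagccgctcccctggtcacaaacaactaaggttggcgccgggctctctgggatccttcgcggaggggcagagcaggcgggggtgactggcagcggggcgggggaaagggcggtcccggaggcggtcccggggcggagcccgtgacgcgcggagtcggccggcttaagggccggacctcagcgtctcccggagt
SLC2A1: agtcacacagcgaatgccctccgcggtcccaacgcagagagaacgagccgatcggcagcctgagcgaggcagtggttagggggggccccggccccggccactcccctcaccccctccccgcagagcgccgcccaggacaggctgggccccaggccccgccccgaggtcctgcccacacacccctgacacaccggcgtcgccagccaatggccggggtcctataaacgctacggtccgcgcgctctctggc
PFKM: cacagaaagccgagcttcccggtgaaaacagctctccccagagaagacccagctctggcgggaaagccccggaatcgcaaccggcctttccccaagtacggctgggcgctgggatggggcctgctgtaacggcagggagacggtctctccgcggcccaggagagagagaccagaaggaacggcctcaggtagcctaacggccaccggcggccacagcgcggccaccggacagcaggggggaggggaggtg
LDHA held 5 ACGTG matches, which began 185, 184, 87, 86 and 73 bases before the start. PGK1 held 2 ACGTG and 1 GCGTG match, at 202, 183 and 211 bases before the start. P4HA1 had 1 ACGTG match at 86 bases and PFKFB4 1 GCGTG match at 166 bases before the start.

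No member passed the call of p under 0.01 with at least a 2-fold change, which 2.64% of all 58195 probes tested passed in limma. Of the 35 genes, 20 had a higher and 15 a lower mean in si-C1GALT1-3 cells, and their median log2 fold change was 0.04, against a median of -0.00479 over all probes. ENO2 and BNIP3, which were not detected on every array, are included. At an unadjusted p under 0.05, 6 members or 17.1% passed, against 13.8% of all probes and 16.9% of the probes detected on every array. SLC2A1, PFKM and PFKFB4 were higher, as were 7.36% of all probes at that p, and EGLN3, NDRG1 and P4HA1 were lower, as were 6.43%. The smallest adjusted p among the members was 0.244. In 8 members, or 22.9%, the groups did not overlap, against 21.5% of all probes. The shares of members past each of these rules were thus near those of the array as a whole. NDRG1 was the 1 member with a mean change of over 2-fold, and for 16 members, or 45.7%, the 95% interval of the change lay within 2-fold either way, as it did for 48.2% of all probes. For the others the interval reached a 2-fold change in at least 1 direction.

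With the replicate number as a block, since same-numbered arrays shared a slide, 8 members or 22.9% had p under 0.05, against 17.3% of all probes. SLC16A1, PFKM and EGLN1 were then higher, and SLC2A3, HK2, ADM, EGLN3 and P4HA1 lower. SLC2A1, PFKFB4 and NDRG1 no longer passed, and again none was called at p under 0.01 and 2-fold, against 2.76% of all probes. PFKM, EGLN3 and P4HA1 had p under 0.05 in both fits. The smallest adjusted p of the chosen probes with the block was 0.217. Of the 33 members with a value on all 6 arrays, 17 or 51.5% had differences of the same sign on all 3 slides, against 44.1% of all probes.

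**Figure D2:**
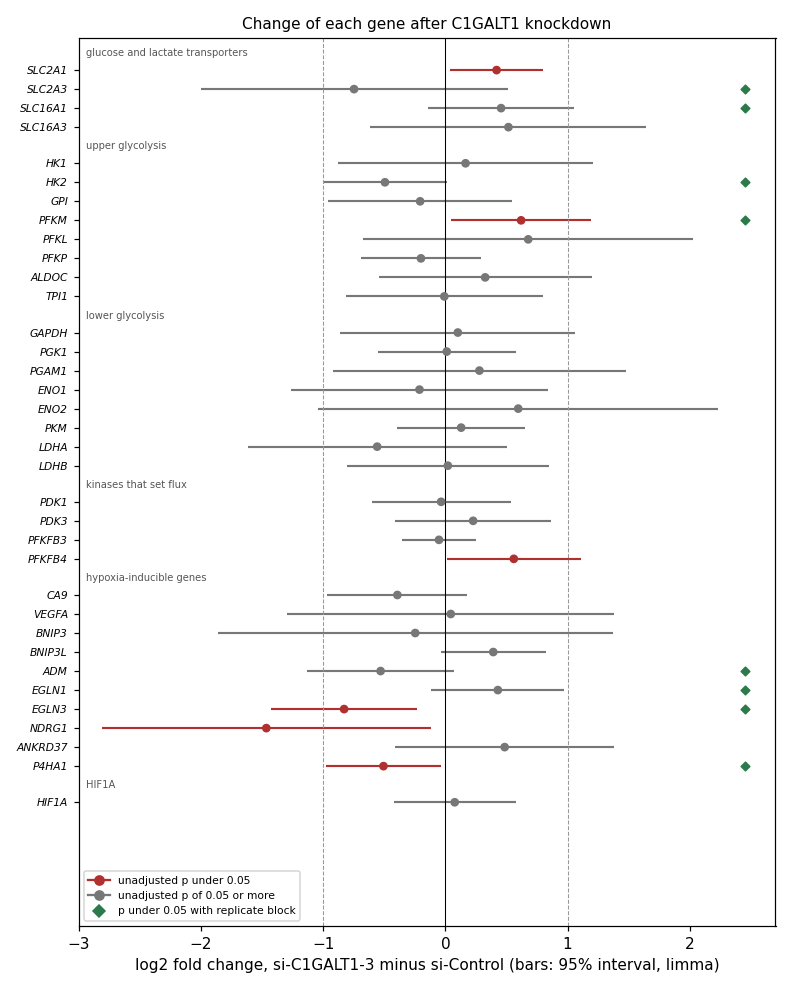
Log2 fold change of each member, si-C1GALT1-3 minus si-Control, with its 95% interval from limma on the horizontal axis and the genes grouped by role. Dashed lines mark a 2-fold change. Red marks an unadjusted p under 0.05, which 6 of the 35 genes or 17.1% had, against 13.8% of all probes. Green diamonds mark p under 0.05 with the replicate block, which 8 or 22.9% had, against 17.3% of all probes.

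Among the transporters, SLC2A1 (GLUT1), the widespread glucose carrier and a well-known HIF target, was higher after knockdown. Its log2 signals were 15.44, 15.66 and 15.42 on the control arrays and 15.77, 15.89 and 16.11 on the knockdown arrays. The lowest knockdown array lay above the highest control array, although the gap was small. The means were 15.51 ± 0.13 (SD, n = 3) and 15.93 ± 0.17 (SD, n = 3), a 1.34-fold difference (log2 fold change 0.42, SE 0.15, unadjusted p = 0.0366, adjusted p = 0.326, limma). With the block the p was 0.0547.

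SLC2A3 (GLUT3), a glucose carrier of high affinity, had a lower mean after knockdown. Its log2 signals of 10.496, 11.30 and 12.03 on the control arrays stood against 10.14, 10.13 and 11.31 on the knockdown arrays. The groups overlapped and slide 3 was high in both, and the knockdown array was lower on each slide, with differences of -0.36, -1.17 and -0.72. The log2 fold change was -0.75, with an unadjusted p of 0.193 without and 0.0271 with the block (limma). A second SLC2A3 probe had within-slide differences of -0.68, -0.98 and -0.81 and a log2 fold change of -0.82. Its unadjusted p was 0.193 without and 0.00411 with the block, where the adjusted p was 0.185 (limma). SLC2A3 has a near-identical neighbour, SLC2A14, and whether probes of the pair hybridize with both transcripts was not tested. SLC2A14, named here after its values were seen, had a log2 fold change of -0.76 (SE 0.29, unadjusted p = 0.042, limma).

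SLC16A1 (MCT1), which carries lactate and pyruvate across the membrane, showed 10.82, 11.03 and 10.42 on the control arrays and 11.42, 11.37 and 10.85 on the knockdown arrays. The groups overlapped, and the knockdown array was the higher one on each slide, by 0.60, 0.34 and 0.43. Its log2 fold change of 0.46 had an unadjusted p of 0.111 without and 0.024 with the block (limma). SLC16A3 (MCT4), the lactate exporter of glycolytic cells, had 14.02, 12.23 and 13.12 on the control arrays and 13.73, 13.75 and 13.44 on the knockdown arrays. The low value is that of si-Control replicate 2, where the spots around it were low as well. Its log2 fold change of 0.52 ± 0.46 (SE) became 0.07 with a wider mask.

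Of the 8 enzymes of upper glycolysis with a probe, 4 were higher and 4 lower, and their median change was 0.08 on the log2 scale. PFKM, the muscle type of phosphofructokinase, which catalyses the committed step, was the 1 enzyme of this group at p under 0.05. The log2 signals were 10.51, 11.19 and 11.14 in si-Control cells and 11.38, 11.68 and 11.64 in si-C1GALT1-3 cells. All knockdown arrays lay above all control arrays, and si-Control replicate 1 stood below the other two controls. This was a log2 fold change of 0.62 (SE 0.23, unadjusted p = 0.0377, adjusted p = 0.329, limma), or 1.54-fold, and p was 0.0156 with the block. The other phosphofructokinase genes did not pass. PFKP, the platelet type, had a log2 fold change of -0.20 ± 0.20 (SE).

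PFKL, the liver type, had the largest positive value of all members, a log2 fold change of 0.68 ± 0.55 (SE). The log2 signals were 13.21, 11.49 and 13.48 on the control arrays and 13.33, 13.66 and 13.23 on the knockdown arrays, and si-Control replicate 2 alone stood low. The within-slide differences were 0.11, 2.17 and -0.25. With the wider mask, which leaves out the spot next to the low-signal rectangle, the log2 fold change of PFKL was 0.06.

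HK2, the hexokinase typically raised in tumours, was lower on each slide. The signals were 12.37, 12.77 and 12.43 on the control arrays and 11.88, 12.35 and 11.86 on the knockdown arrays. No knockdown array reached the lowest control array, and the within-slide differences of -0.49, -0.43 and -0.57 were close to each other. The log2 fold change of -0.49 ± 0.20 (SE) had an unadjusted p of 0.0531 without and 0.0143 with the block (limma). A second HK2 probe, with a log2 signal of 6.83 on si-Control replicate 2 against 10.07 and 10.33 on the other controls, had differences of -0.59 and -0.52 on slides 1 and 3 and of 3.20 on slide 2. The spots around that probe on si-Control replicate 2 had a median deviation of -0.99.

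The other members of upper glycolysis had p above 0.05 in both fits. They are the hexokinase HK1 (log2 fold change 0.16), the isomerase GPI (-0.21), the brain aldolase ALDOC (0.33) and TPI1 (-0.01), which interconverts the triose phosphates.

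The enzymes of lower glycolysis, which carry the carbon from glyceraldehyde phosphate to lactate, gave no member at p under 0.05 in either fit. Of the 8 genes, 6 had a higher and 2 a lower mean, and the median change was 0.06 on the log2 scale. ENO2, detected on none of the control arrays and on 1 of the 3 knockdown arrays, is counted among the higher ones. GAPDH, which oxidizes glyceraldehyde phosphate and has many processed pseudogenes, had log2 signals of 15.27, 15.87 and 16.70 on the control arrays and 15.78, 16.04 and 16.34 on the knockdown arrays. The control arrays spanned a wider range than the knockdown arrays, on both sides, and the log2 fold change was 0.10 ± 0.39 (SE). PGK1, which makes the first ATP of the pathway, had a log2 fold change of 0.01 ± 0.23 (SE), with a 95% interval from -0.55 to 0.57. For PKM, the pyruvate kinase, the value was 0.13 ± 0.21 (SE), with an interval from -0.39 to 0.65.

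LDHA, which reduces pyruvate to lactate, had the largest negative value of this group. Its log2 signals were 14.83, 15.64 and 16.49 on the control arrays and 14.85, 15.24 and 15.19 on the knockdown arrays. The groups were level on slide 1 and furthest apart on slide 3, where the difference was -1.29. The fitted log2 change was -0.56 (SE 0.43, unadjusted p = 0.242, limma). A second LDHA probe had within-slide differences of -0.31, -0.82 and -1.51 and a log2 fold change of -0.88, with p of 0.0845 without the block and 0.0416 with it (limma). LDHB, the form that favours the reverse reaction, had a log2 fold change of 0.02 ± 0.33 (SE).

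Within the si-Control group, replicate 3 had the highest signal for 7 of the 8 lower glycolysis enzymes, or 87.5%, against 37.1% of all probes. In the knockdown group replicate 3 was the highest for 6 of the 8, or 75%, against 40.3% of all probes. The pattern was not limited to these enzymes, since si-Control replicate 3 was also the highest control for 5 of 7 pentose phosphate genes (71.4%) and 13 of 22 genes of the TCA cycle (59.1%). The signal of si-Control replicate 3 exceeded the mean of the other two controls by 1.60 for PGAM1, the phosphoglycerate mutase, by 1.28 for ENO1, the enolase, and by 1.25 for LDHA on the log2 scale. In the knockdown group the same difference was 0.48, 0.42 and 0.15. The knockdown minus control difference of ENO1 was 0.13, 0.02 and -0.79 on slides 1, 2 and 3, and that of PGAM1 was 0.58, 0.73 and -0.47. The spots around PGAM1 on si-Control replicate 2 had a median deviation of -0.46. A second PGAM1 probe stood 1.06 higher on si-Control replicate 3 than the mean of the other two controls. Its differences on slides 1, 2 and 3 were 0.58, -0.25 and -0.48. The median of the 8 within-slide differences was 0.27 on slide 1, 0.20 on slide 2 and -0.42 on slide 3. Replicate 3 was also the highest control for 6 of the 8 without normalization between arrays, where 7.18% of all probes were. In the knockdown group without that normalization, replicate 3 was the highest for 2 of the 8, or 25%, against 12.3% of all probes. With the 75th percentile normalization replicate 3 was the highest for 7 of the 8 in each group. The shares of all probes were then 30.6% in si-Control and 44.3% in the knockdown group. The range over the control arrays exceeded the size of the change for 31 of the 35 members. It also did so for 7 of 7 pentose phosphate genes and 17 of 22 genes of the TCA cycle, and was not counted over all probes. The median of that range was 1.41 for lower glycolysis, against 0.63 for all probes.

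**Figure D3:**
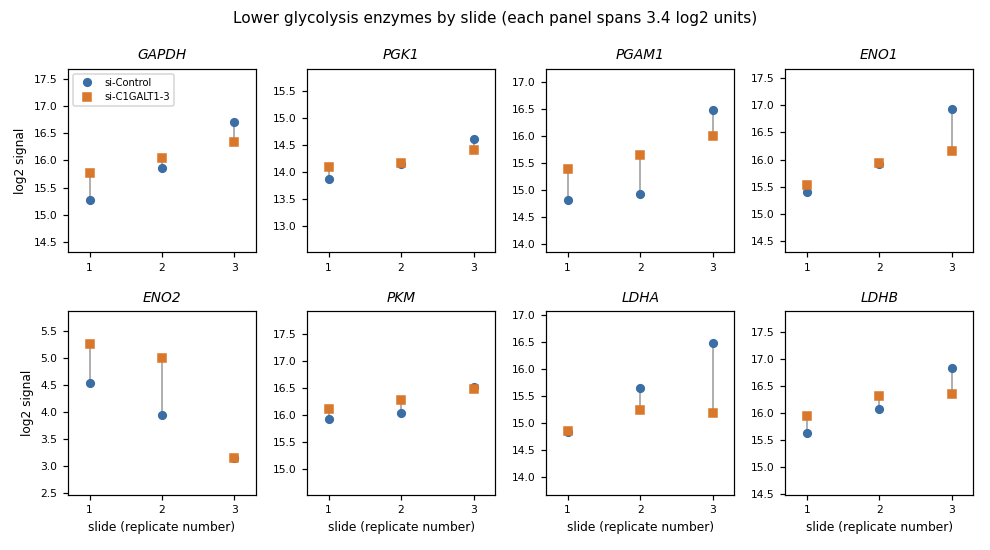
Log2 signal of the 8 lower glycolysis enzymes on each slide, with the si-Control array as a circle and the si-C1GALT1-3 array as a square joined by a line, and panels of equal height. Except for ENO2, the si-Control array of slide 3 is the highest control in each panel and lies above the knockdown array of that slide.

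ENO2, the neuronal enolase and the exception to this pattern, was detected on none of the control arrays and on 1 of the 3 knockdown arrays, so no fold is given for it.

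Of the kinases that set the flux, 4 were measured. PFKFB4 makes and removes fructose 2,6-bisphosphate, the activator of phosphofructokinase. It had log2 signals of 8.02, 8.50 and 8.68 in si-Control cells and 9.10, 9.05 and 8.73 in si-C1GALT1-3 cells. The groups did not overlap, but on slide 3 they differed by 0.05, against 1.08 and 0.55 on slides 1 and 2. The mean difference on the log2 scale was 0.56 (SE 0.22, unadjusted p = 0.0469, adjusted p = 0.355, limma), and p was 0.095 with the block. Its relative PFKFB3 was the steadiest member. The log2 signals of PFKFB3 lay between 11.09 and 11.28 on all 6 arrays, and its log2 fold change was -0.05, with a 95% interval from -0.36 to 0.25.

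The pyruvate dehydrogenase kinases turn off the entry of pyruvate into the mitochondrion. PDK1, the HIF-induced member, had a log2 fold change of -0.04 ± 0.23 (SE), and PDK3 had 0.23 ± 0.26 (SE). The spots around PDK1 on si-Control replicate 2 had a median deviation of -0.60, and with the wider mask its value was -0.24.

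The hypoxia-inducible genes outside glycolysis had a median change of -0.32 on the log2 scale, and 4 of the 10 were higher and 6 lower. EGLN3 (PHD3), a prolyl hydroxylase that marks HIF1A and is itself induced by HIF, had the smallest p of all members. The log2 signals were 9.48, 9.64 and 10.12 on the control arrays and 8.76, 9.25 and 8.75 on the knockdown arrays. The highest knockdown array lay below the lowest control array. The log2 fold change was -0.83 (SE 0.24, unadjusted p = 0.015, adjusted p = 0.244, limma), so the signal was 1.78-fold higher in si-Control cells, and p was 0.0328 with the block. Its promoter, shown above, held neither searched sequence.

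EGLN1 (PHD2), the main hydroxylase of HIF1A under normal oxygen, differed in the opposite direction. Its log2 signals of 13.65, 14.15 and 14.31 on the control arrays stood against 14.27, 14.62 and 14.52 on the knockdown arrays. The groups overlapped narrowly, and the knockdown array was higher on each slide, by 0.62, 0.46 and 0.21. The fitted log2 change was 0.43 ± 0.22 (SE), with p of 0.101 without and 0.0425 with the block (limma).

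NDRG1, a cytoplasmic protein strongly induced by hypoxia, had the largest mean change of the set, which came from slides 1 and 2. The signals on the log2 scale were 12.62, 12.63 and 10.76 on the control arrays and 10.28, 10.67 and 10.66 on the knockdown arrays. The third si-Control array was nearly as low as the knockdown arrays, and the within-slide differences were -2.34, -1.95 and -0.10. On the log2 scale the change was -1.46 (SE 0.54, unadjusted p = 0.0375, adjusted p = 0.329, limma), and p was 0.0586 with the block. Without si-Control replicate 3 it was -2.07, and NDRG1 passed p under 0.01 and 2-fold, the 1 member to do so under any alternative run.

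P4HA1, the prolyl hydroxylase subunit that modifies collagen, had log2 signals of 10.78, 10.86 and 10.503 on the control arrays and 9.97, 10.47 and 10.18 on the knockdown arrays. The groups were apart by a narrow gap, and each slide showed a lower knockdown array. The log2 fold change was -0.51 (SE 0.19, unadjusted p = 0.0387, adjusted p = 0.332, limma), with p of 0.0371 with the block. ADM (adrenomedullin), a secreted vasodilator peptide, had 13.61, 13.02 and 13.54 on the control arrays and 12.74, 12.64 and 13.21 on the knockdown arrays. On slide 3 the knockdown signal reached into the control range. Its log2 fold change was -0.53 ± 0.24 (SE), with p of 0.0748 without and 0.0404 with the block (limma).

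The mitophagy receptor BNIP3L (NIX) was higher on each slide, by 0.45, 0.15 and 0.57, and its groups did not overlap. Its mean log2 fold change was 0.39 (SE 0.17, unadjusted p = 0.0666, limma), and a second probe gave 0.35. BNIP3, the related receptor, was detected on 2 of 3 control and 1 of 3 knockdown arrays, and the change was -0.25 on the log2 scale (SE 0.65).

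VEGFA, the angiogenic growth factor, varied mainly between slides. Its log2 signals were 13.93, 13.84 and 12.40 on the control arrays and 13.61, 14.01 and 12.68 on the knockdown arrays. Replicate 3 was lowest in both groups, with log2 differences of -1.48 and -1.13 from the mean of the other two arrays of si-Control and of the knockdown. On the log2 scale the change was 0.04 ± 0.54 (SE).

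CA9, a surface carbonic anhydrase that is among the most HIF-dependent genes, had log2 signals of 6.93, 7.04 and 6.43 on the control arrays and 6.11, 6.51 and 6.60 on the knockdown arrays. The groups overlapped through slide 3, and the log2 fold change was -0.39 ± 0.23 (SE). ANKRD37, an ankyrin repeat protein induced by hypoxia, had a log2 fold change of 0.48 ± 0.34 (SE) from 2 control arrays. HIF1A itself had 14.26 and 14.04 on control arrays 1 and 3 and 14.09, 14.44 and 14.14 on the knockdown arrays. The log2 fold change of its mRNA was 0.08 ± 0.19 (SE), with a 95% interval from -0.42 to 0.58, and a second probe had -0.33. Over the set, 11 genes had a second probe, and for 7 of them its log2 fold change had the other sign than the chosen probe, among them PGAM1 (-0.05 against 0.28) and VEGFA (-0.48 against 0.04). HIF activity is set mainly by protein stability, which the arrays do not measure.

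**Figure D4:**
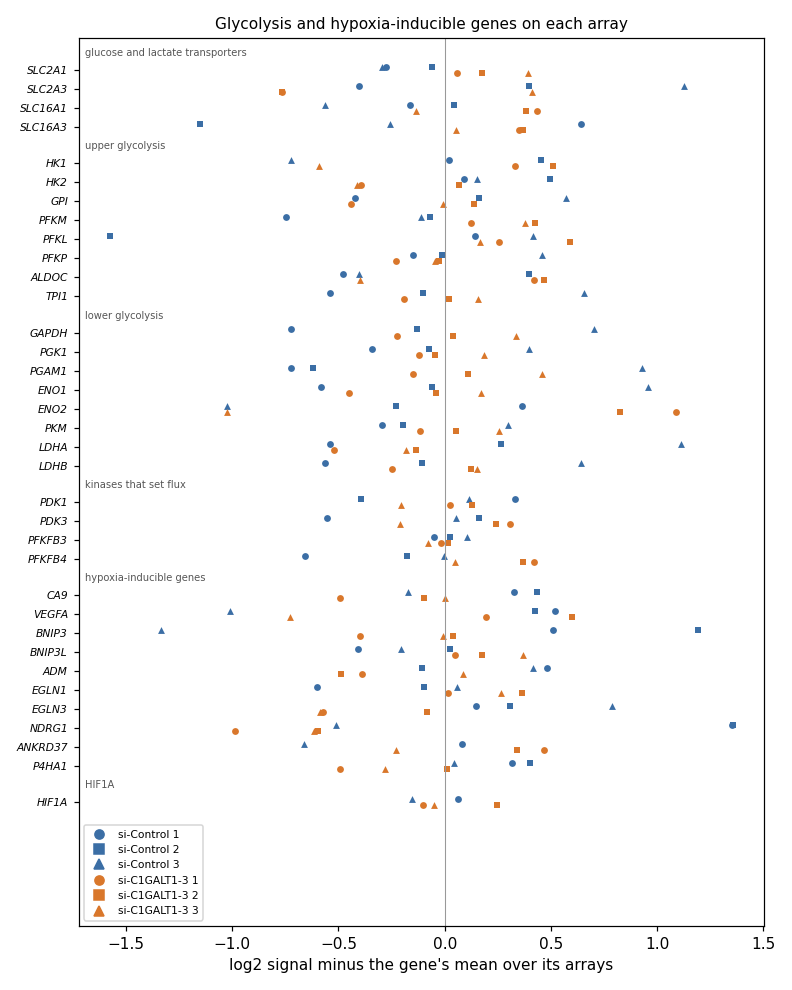
Log2 signal of each member on each array, relative to the mean of the gene over its arrays, with si-Control in blue and si-C1GALT1-3 in orange and the replicate number as the shape of the point. Groups stand apart in 8 of the 35 genes, or 22.9%, against 21.5% of all probes, and SLC2A1, PFKM, EGLN3 and P4HA1 are among them. The points of si-Control replicate 3 (blue triangles) lie far right for most lower glycolysis enzymes and far left for VEGFA and BNIP3.

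**Figure D5:**
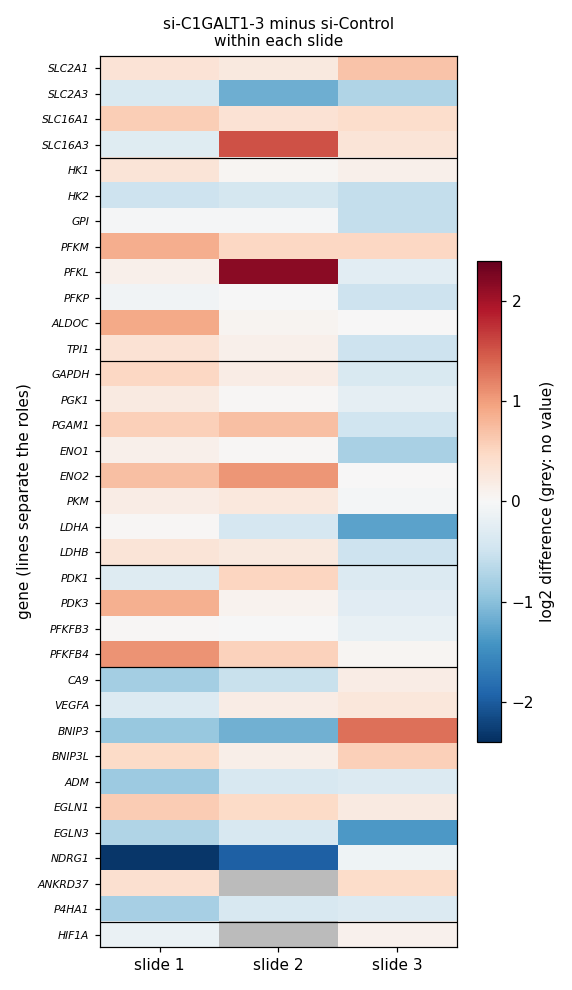
Difference in log2 signal, si-C1GALT1-3 minus si-Control, within each of the 3 slides for the 35 members, with red for higher and blue for lower after knockdown and grey where the control spot was masked. PFKL and SLC16A3 stand out on slide 2, with 2.17 and 1.52, and NDRG1 on slides 1 and 2, with -2.34 and -1.95.

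Genes with and without ACGTG in the promoter had higher and lower means alike. Of the 13 members with ACGTG and a probe, 7 were higher and 6 lower, the median change was 0.01 on the log2 scale, and 1 (P4HA1) had p under 0.05. These counts include ENO2 and BNIP3, which were not detected on every array. Of the 17 members in the promoter table without ACGTG, 10 were higher and 7 lower, with a median of 0.08, and 4 had p under 0.05. Some of the 17 held GCGTG, PFKFB4 and ADM among them. Of all probes, 13.8% had p under 0.05. Whether the letters go with the change was not tested. LDHA and PGK1, shown above with 5 and 2 ACGTG matches, had changes of -0.56 and 0.01.

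Genes around the set were read from lists of the same pathways. Of 36 other glycolysis genes, 1 was called at p under 0.01 and 2-fold, a call that 2.64% of all probes passed. Among the 36, 7 or 19.4% had p under 0.05, against 13.8% of all probes. The called gene, SLC2A4 (GLUT4), the insulin-regulated carrier, was detected on none of the control arrays and was named after its values were seen. It was not called without si-Control replicate 1 or 2 or without knockdown replicate 1 or 2. With the replicate block its unadjusted p in limma was 0.0199, so it was not called, and LDHC, the testis lactate dehydrogenase, also named after its values were seen, was called instead (log2 fold change 1.13, unadjusted p = 0.0095, limma). The largest positive value among the detected genes of that list was that of PDK2, a pyruvate dehydrogenase kinase (log2 fold change 1.96, SE 0.76, unadjusted p = 0.0444, limma). The control signals of PDK2 were 8.01, 5.41 and 8.19, so the value rested on si-Control replicate 2, and with the wider mask it was 1.06, which passed the call with a smaller spread but was below the 1.15 of LDHC. The largest negative value was that of PCK2, the mitochondrial carboxykinase (-1.05, SE 0.72), which was -1.74 without si-Control replicate 3, -0.68 and -0.71 without si-Control replicates 1 and 2 and -0.59 without knockdown replicate 3. Of 14 HIF pathway components, none was called and 3 or 21.4% had p under 0.05, against 2.64% and 13.8% of all probes. HIF3A, a relative that can restrain HIF1A, had 1.11 (SE 0.37, unadjusted p = 0.0256, limma), and EPAS1 (HIF2A) had -0.68 (SE 0.27, unadjusted p = 0.0494, limma). With the block HIF3A was called, with a log2 fold change of 1.11 (unadjusted p = 0.00751, limma).

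Of 34 other hypoxia-inducible genes, 32 had a probe, and 2 of these were called, against 2.64% of all probes. Among the 32, 7 or 21.9% had p under 0.05, against 13.8% of all probes. With the replicate block 11 or 34.4% did, against 17.3% of all probes. CCNG2, a cyclin of resting cells, rose with a log2 fold change of 1.80 (SE 0.40, unadjusted p = 0.00443, adjusted p = 0.164, limma). It kept a log2 fold change of at least 1.45 with any array left out, but was not called without si-Control replicate 3 or without any 1 of the knockdown arrays. AK4, a mitochondrial adenylate kinase named after its values were seen, fell with a log2 fold change of -1.25 from 2 control arrays and had an unadjusted p = 0.0145 with the block (limma). AK4 had its spot in the low-signal rectangle, and with the rectangle kept its value was 1.57. It was not called without si-Control replicate 3, with -0.90, or without any 1 of the knockdown arrays. DDIT4, an inhibitor of mTORC1, had -1.44 (SE 0.69, unadjusted p = 0.0829, limma). Its control signals were 15.24, 14.51 and 12.65, and without si-Control replicate 3 the value was -2.19 and passed the call, while without si-Control replicate 1 it was -0.88. The 7 pentose phosphate genes held none at p under 0.05, against 13.8% of all probes, and ranged from -0.06 for RPE to 0.42 for PGLS. Of 22 genes of the TCA cycle and its entry, 1 was called and 3 or 13.6% had p under 0.05, against 2.64% and 13.8% of all probes. SUCLA2, a subunit of succinyl-CoA ligase, had the largest positive value (0.59, SE 0.19, unadjusted p = 0.0238, limma). DLD, the dihydrolipoyl dehydrogenase shared by the pyruvate and oxoglutarate complexes, fell with a log2 fold change of -1.98 (SE 0.38, unadjusted p = 0.00245, adjusted p = 0.14, limma). DLD was detected on 2 of the 3 knockdown arrays, and its p was 0.0155 with the block. It was not called without si-Control replicate 3, where the value was -1.78, or with the methods' t-test. With normexp on the median signal the value of DLD was -0.95, below 2-fold, and it was not called.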

How the data were processed

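Gene expression was measured on 6 one-colour Agilent arrays, 3 of si-Control and 3 of si-C1GALT1-3 AGS cells. The authors deposited the output of Agilent Feature Extraction 10.5.1.1, with the fluorescence intensity of each spot. That software had corrected the processed intensity for background and, on all arrays but si-Control replicate 2, for a multiplicative trend. The deposited series table gives each spot's intensity after background subtraction and served as an alternative.

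From these files, log2 processed signals without control spots and without spots marked as outliers (100 to 424 per array) were masked on si-Control replicate 2, quantile normalized, averaged by probe and compared with limma 3.58.1 in R 4.3.3, with no filter on dim probes. A call needs an unadjusted p under 0.01 and a 2-fold change. Adjusted p-values are Benjamini-Hochberg over all probes. Probes were named by accession through RefSeq genes of GRCh38.p14.

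The members and lists were chosen with earlier results of these data known. The genes named are the members, C1GALT1 and the largest rise and fall of each other list among probes well above background on all 3 arrays of a group, and outside this rule SLC2A14, SLC2A4, LDHC and AK4, which were chosen after their values were seen. Deviations from the group means correlated between same-numbered arrays with 0.200, 0.214 and 0.318 for replicates 1, 2 and 3, and the numbers were taken as pairs through the slide. The test was checked on simulated arrays with noise independent between arrays, so the check does not cover the correlation of same-numbered arrays. The 19 alternatives are another mask, scaling, signal column, filter, prior or test, the replicate block, the median over probes, and each array left out in turn. The wider mask, which adds spots around the rectangle with low neighbours, was chosen after seeing the data. The mean spot signal was not used, and normexp ran on the median spot signal with an offset of 50.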

Additional observations from a re-analysis of the deposited data

How the results depend on the processing

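Over 19 alternatives the median log2 fold change of the 35 members lay between -0.05 and 0.20, and 21 members had the same sign under every one. None of the 35 was called except NDRG1 without si-Control replicate 3, so leaving out each array in turn gave 0 to 1 called. EGLN3 had p under 0.05 in 16 of the alternatives, PFKM in 12, P4HA1 in 11, NDRG1 in 10, and SLC2A1 and PFKFB4 in 9 each. The number of members at p under 0.05, 6 as reported, was 3 without the mask, 2 with the 75th percentile normalization, 1 with no normalization between arrays, 3 with the methods' t-test, 9 with normexp on the median signal and 2 to 8 with an array left out, the lowest without si-C1GALT1-3 replicate 1 and the highest without si-Control replicate 3. Groups that did not overlap numbered 5 without the mask and 8 to 15 with an array left out, where fewer arrays make overlap rarer. The shares of all probes past these rules were not counted under these alternatives. The counts therefore do not show whether the members moved apart from the array as a whole. With the replicate block, which pairs the arrays of a slide, 8 members or 22.9% had p under 0.05, against 17.3% of all probes. C1GALT1 had -1.00029 with the block, again short of the call.

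The count of all probes called, 1538 as reported, was 915 with normexp on the median signal and 896 with the methods' t-test. It lay between 896 and 1734 with all arrays kept and between 1126 and 1781 with an array left out. It was not taken for the median over probes. C1GALT1 passed the call when dim probes were left out, at -1.00029. Called genes in the other lists were few, so single genes moved the counts. The count of all probes called moved as well, so the list counts alone are not a result about the lists. Other glycolysis genes numbered 2 with the mask by tiles or the wider mask, 0 without dim probes or with the t-test, and 0 to 2 with an array left out. HIF pathway components numbered 1 with normexp and with the block, and 0 to 1 with an array left out. Other hypoxia-inducible genes numbered 0 without the mask, with the series table and with the t-test, 1 with the block and with the median over probes, 3 with the 75th percentile normalization, and 0 to 2 with an array left out. AK4 turned from -1.25 to 1.57 without the mask. TCA cycle genes numbered 0 with normexp, with the block and with the t-test, and 0 to 1 with an array left out. The cause of these shifts was not tested. The low-signal area of si-Control replicate 2 and the spread of 3 arrays per group limit what could be detected.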
